A study of Mus musculus with 9 samples.

Results

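The genes described here are 48 genes of DNA replication and repair, listed by gene symbol and measured with Affymetrix oligonucleotide arrays in sorted mouse natural killer (NK) cells. A probe set, the group of short probes that measures a transcript, was taken for a gene where the platform annotation gives it that single symbol. By this rule 47 of the 48 genes had 107 probe sets, out of 18193 genes and 45101 probe sets on the array, and Chaf1a had none of its own. Each gene was represented by its brightest probe set, and 46 genes passed a filter on low intensity, among 12925 genes in all that did. The one that did not was Tyms, which makes thymidylate, and whose brightest probe set read 44.0, 42.6 and 49.9 in NKDxIL15tg bone marrow, 53.4, 59.4 and 47.4 in NKDxIL15tg spleen and 41.0, 38.5 and 47.1 in IL15tg spleen.

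The series holds 3 groups of 3 arrays, which the labels call biological replicates. The first group is NK cells from the bone marrow of NKDxIL15tg mice, the second is NK cells from the spleen of NKDxIL15tg mice, and the third is NK cells from the spleen of IL15tg mice. All 3 groups carry the IL15tg transgene for interleukin 15, a cytokine on which NK cells depend, so no group without it was compared. Mice of the transgenic NKD line have few mature NK cells, and the series' design text calls the NKDxIL15tg cells immature and the IL15tg cells mature. Maturity and the NKD genotype therefore cannot be told apart here, and between NKDxIL15tg bone marrow and IL15tg spleen the organ differs as well. Age, sex, the number of animals behind an array, the promoter of the transgenes and the sorting gates are not given in the sources used here.

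Replication starts when the origin recognition complex, Cdc6 and Cdt1 load the Mcm2 to Mcm7 helicase onto DNA, a step called licensing. Cdc45 and the GINS complex then switch the helicase on, DNA polymerases with primase copy the strands, the clamp PCNA with its loader RFC keeps the polymerases on DNA, and the protein RPA covers the exposed single strands. Transcription factors of the E2F family turn on many of these genes as a cell leaves rest, and developing lymphocytes pass through phases of proliferation.

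E2F proteins bind short promoter elements, so the sequence before the start of the genes was searched for them. RefSeq promoter windows on the mouse build GRCm38.p6 were found for 40 of the 48 genes, and the 250 bases before each start were read. The element was searched as TTTGGCGC, TTTCCCGC, TTTGCCGC or TTTCGCGC on either strand. It stood in the windows of 10 of the 40 genes (25%), against 583 of 27025 genes in the whole RefSeq table (2.16%). The windows of these genes were also richer in G and C, with a median of 60.4% against 52.4% over all windows. The sequences below are those of genes that hold an element and were higher in NKDxIL15tg spleen than in IL15tg spleen, printed 5′ to 3′ on the strand of the gene, with the elements in capitals.
Cdc6: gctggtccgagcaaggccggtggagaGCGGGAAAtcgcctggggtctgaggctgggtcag
Mcm5: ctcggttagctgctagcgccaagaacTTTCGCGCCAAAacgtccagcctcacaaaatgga
Mcm6: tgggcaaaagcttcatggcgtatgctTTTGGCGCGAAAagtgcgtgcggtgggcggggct
Mcm7: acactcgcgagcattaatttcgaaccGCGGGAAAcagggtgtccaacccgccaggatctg
Uhrf1: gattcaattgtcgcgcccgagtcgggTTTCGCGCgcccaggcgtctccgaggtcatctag

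The Cdc6 stretch lies at chr11:98907987-98908046 on the plus strand, and its element ends 131 bases before the start. The Mcm5 stretch (chr8:75109330-75109389 on the plus strand) and the Mcm6 stretch (chr1:128359782-128359841 on the minus strand) each hold 2 overlapping elements, 1 on each strand, and Mcm6 has another element that ends 40 bases before its start. Those of Mcm7 (chr5:138172015-138172074 on the minus strand) and Uhrf1 (chr17:56304102-56304161 on the plus strand) hold 1 each. Brca2, Dnmt1, Orc1, Pola1 and Rfc3 are the other genes with an element. Of the 10 genes with an element 5 were higher in NKDxIL15tg spleen than in IL15tg spleen, with a median log2 change of 0.488, and of 28 tested genes without one 10 were higher, with a median of 0.447. In NKDxIL15tg bone marrow against IL15tg spleen the counts were 6 of 10 (median 0.819) and 16 of 28 (median 0.738). The CCAAT box, searched as CCAAT on either strand, stood in 26 of the 40 genes (65%), against 10133 of 27025 genes (37.5%). A match describes these letters in the window and does not show binding.

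Intensities were comparable between arrays except for one. NKDxIL15tg bone marrow replicate 3 had a median intensity of 64.9, against 56.6 to 59.1 in the other 8 arrays, and it had the lowest mean rank correlation with its own group (0.877, against 0.916 to 0.976). In it 7.70% of all tested probe sets lay over 2-fold above every other array, and so did Tk1 and Ccne1 among the 46 replication genes. Results are therefore given with and without it. The 12 NK cell markers all read above the floor of 16 in every group, and their summed intensity was 24480 to 27200 in NKDxIL15tg bone marrow, 29920 to 33200 in NKDxIL15tg spleen and 43040 to 45300 in IL15tg spleen. At an adjusted p under 0.05 in limma, 4 (Klrc1, Klrk1, Klrd1 and Tbx21) were lower in NKDxIL15tg spleen than in IL15tg spleen. In NKDxIL15tg bone marrow 5 were lower, these and Prf1, and 0 were higher in either group. Over all genes 4.87% and 8.70% were lower. The log2 ratio of 3′ to 5′ signal of the Gapdh control was 1.87 to 2.33 in NKDxIL15tg bone marrow, 1.62 to 1.87 in NKDxIL15tg spleen and 1.99 to 3.21 in IL15tg spleen. That of the actin control was 0.926 to 1.77 in NKDxIL15tg bone marrow, 1.54 to 2.03 in NKDxIL15tg spleen and 1.80 to 2.73 in IL15tg spleen, with ranges that overlapped and stood in the reverse of the order of most replication genes. The part of RNA quality in the results was not tested. In bulk populations such as these, fewer cells of a type and less RNA per cell cannot be told apart.

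In the spleen, 17 of the 46 replication genes were higher in NKDxIL15tg than in IL15tg NK cells, 0 were lower and 29 did not pass an adjusted p of 0.05 in limma (2 were lower at an unadjusted p under 0.05). Over all 12925 genes tested, 7.65% were higher and 4.87% lower. The replication genes had a median log2 change of 0.485, where a change of 1 is a doubling, against 0.02 over all genes, and 40 of the 46 changes were positive. The 3 arrays of NKDxIL15tg spleen lay entirely above the 3 of IL15tg spleen for 26 genes (21.3% of all genes did so) and entirely below for 2, Cdc45 and Dnmt1 (15.1%). The groups share 1 estimate of the spread, and without NKDxIL15tg bone marrow replicate 3 in it 22 genes were higher and 1 lower (11.0% and 7.40% of all genes), and all 17 stayed among them. The number higher was 7 without IL15tg spleen replicate 1, 7 without IL15tg spleen replicate 2 and 9 without NKDxIL15tg spleen replicate 2. Shares of all genes were not taken in these fits, so the falls cannot be set beside those of all genes. Of the 17, 6 were called in every fit that left out 1 array: Cdc6, Mcm2, Mcm6, Rfc5, Rpa2 and Rrm2.

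In NKDxIL15tg bone marrow against IL15tg spleen 28 of the 46 genes were higher and 1 was lower, where 11.5% of all genes were higher and 8.70% lower. The median change was 0.76, against 0.12 over all genes, and 44 changes were positive. The arrays of NKDxIL15tg bone marrow lay entirely above those of IL15tg spleen for 34 genes (25.4% of all genes) and entirely below for 1 (16.6%). Without NKDxIL15tg bone marrow replicate 3 the counts were 30 higher and 1 lower (12.1% and 9.57% of all genes), and 26 of the 28 were kept. Without IL15tg spleen replicate 1 the number higher was 18, and without IL15tg spleen replicate 2 it was 18. Shares of all genes were again not taken in these fits. All 17 genes called in the spleen were also called in NKDxIL15tg bone marrow, and 11 were called in NKDxIL15tg bone marrow alone. Both comparisons use the same 3 IL15tg arrays, so their values are given side by side and not as separate evidence.

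**Figure D1:**
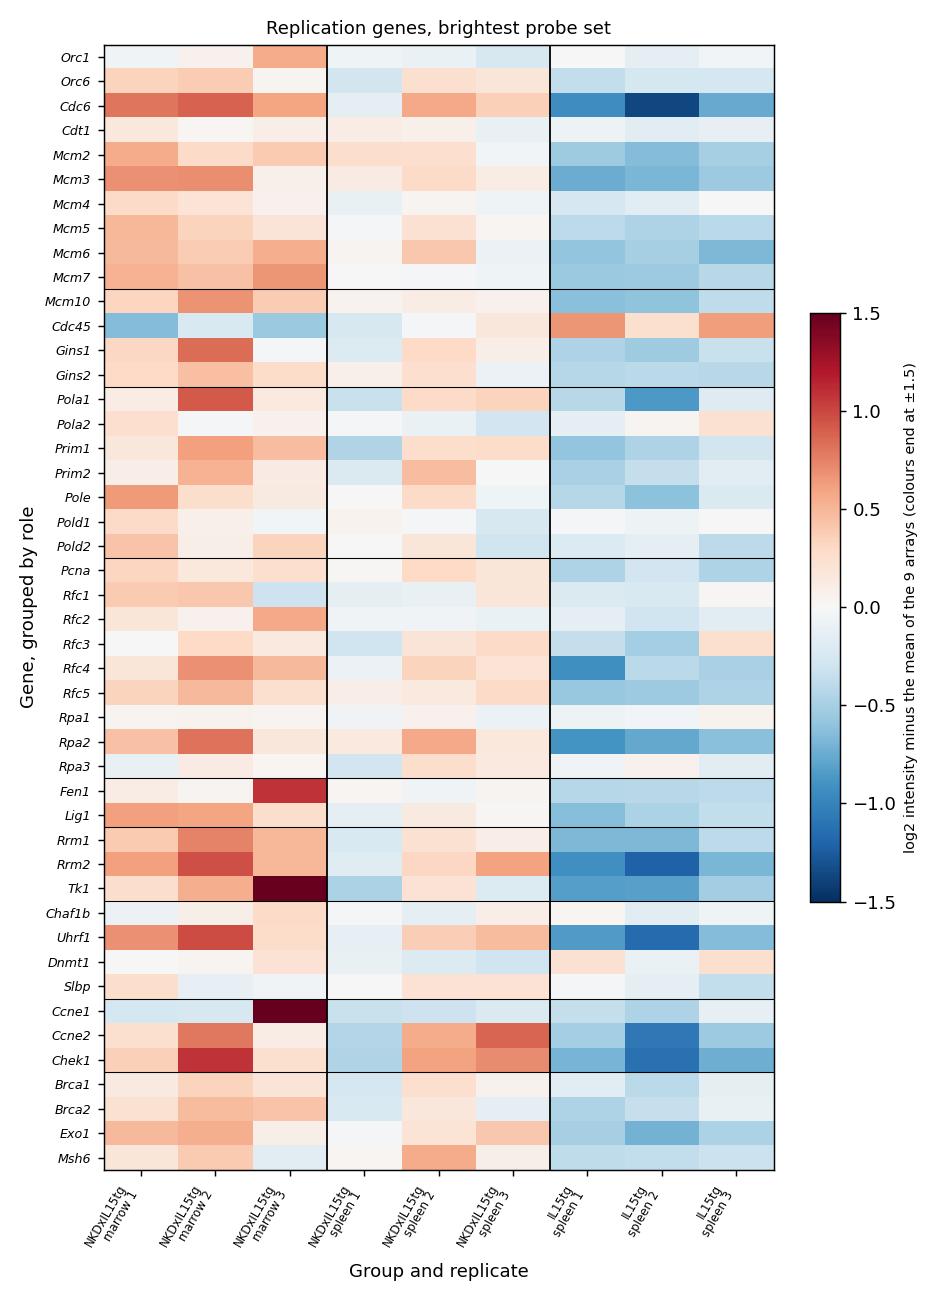
Brightest probe set of each of the 46 replication genes that passed the filter, grouped by role (rows), in the 9 arrays (columns). Colour gives the log2 intensity minus the gene's mean over the 9 arrays; most genes are red in the 3 arrays of NKDxIL15tg bone marrow and blue in the 3 arrays of IL15tg spleen, while Cdc45 runs the other way and Tk1 and Ccne1 stand out in NKDxIL15tg bone marrow replicate 3.

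The map of all genes by array shows the same order in most of the genes. The group means ran NKDxIL15tg bone marrow above NKDxIL15tg spleen above IL15tg spleen in 37 of the 46 genes (80.4%), and in 38 without NKDxIL15tg bone marrow replicate 3, against 29.6% of all genes. Arrays of the same group did not move alike. Within NKDxIL15tg spleen, replicate 1 was the lowest of the 3 arrays for 30 of the 46 genes and replicate 2 the highest for 25. Among the IL15tg spleen arrays, replicate 3 was the highest for 31 genes.

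**Figure D2:**
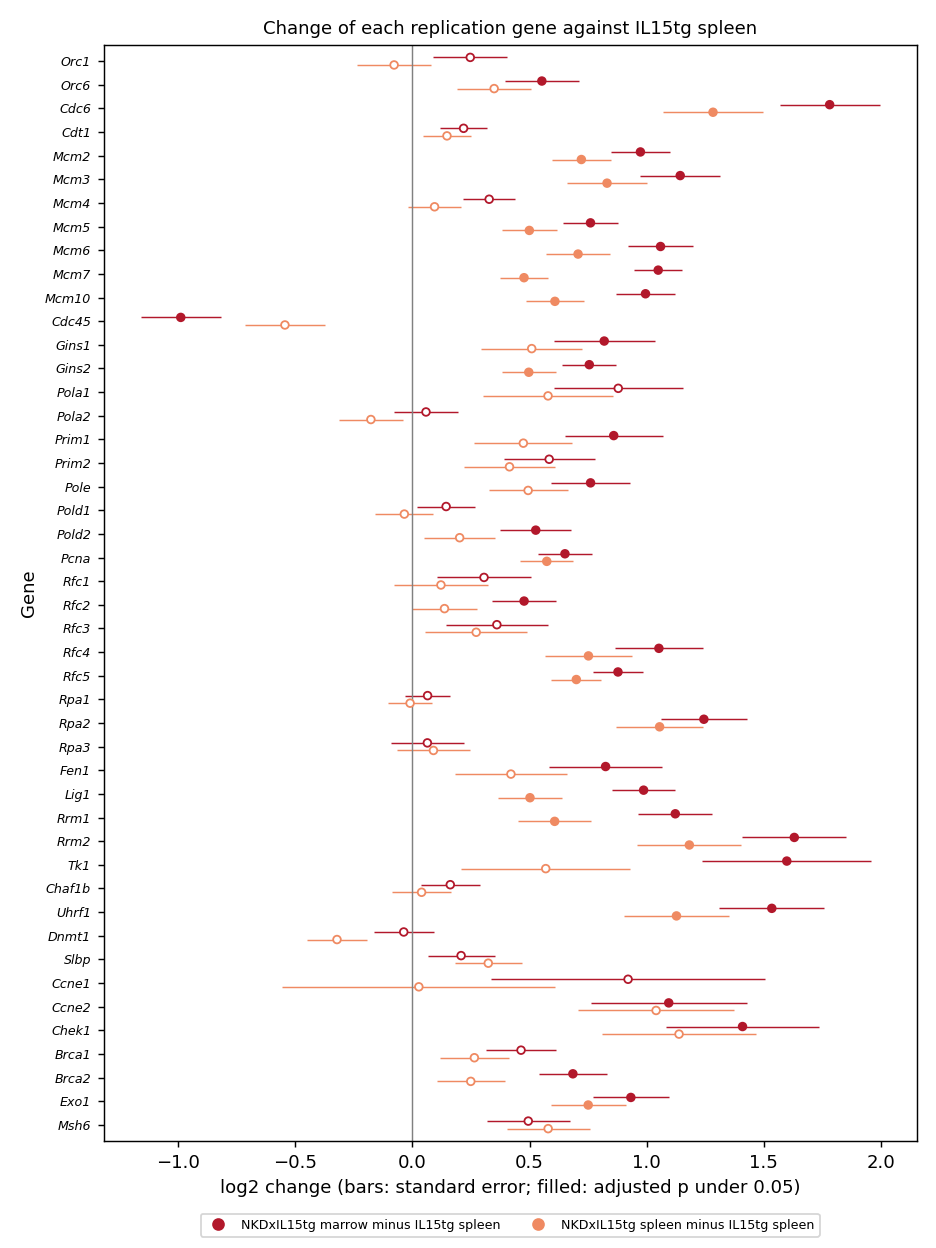
Log2 change of each replication gene against IL15tg spleen, for NKDxIL15tg bone marrow (dark) and NKDxIL15tg spleen (light). Bars are standard errors from limma and filled points have an adjusted p under 0.05; 28 bone marrow points and 17 spleen points are filled on the right of 0, and Cdc45 in bone marrow is the filled point on the left.

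Of 10 licensing genes, 7 were higher in NKDxIL15tg bone marrow and 6 in NKDxIL15tg spleen than in IL15tg spleen. The shares of all genes to set beside the counts by role, here and below, are 11.5% higher in NKDxIL15tg bone marrow and 7.65% in NKDxIL15tg spleen. Cdc6, the ATPase that brings the Mcm helicase to the origin, read 199, 209.5 and 171 in NKDxIL15tg bone marrow, 103, 169 and 146 in NKDxIL15tg spleen and 59.5, 44.0 and 67.1 in IL15tg spleen. Every array of NKDxIL15tg bone marrow lay above every array of NKDxIL15tg spleen, and these lay above all of IL15tg spleen. The log2 change of Cdc6 against IL15tg spleen was 1.78 ± 0.21 (adjusted p = 0.000694) in NKDxIL15tg bone marrow and 1.28 ± 0.21 (adjusted p = 0.00515) in NKDxIL15tg spleen, with errors given here and below as standard errors (n = 3 arrays per group). Mcm2, a subunit of the helicase ring, read 907, 750.3 and 807 in NKDxIL15tg bone marrow, 739, 734 and 599.7 in NKDxIL15tg spleen and 426, 392 and 436 in IL15tg spleen. Its groups stood in the same order without overlap, and its changes were 0.97 ± 0.12 (adjusted p = 0.00099) in NKDxIL15tg bone marrow and 0.72 ± 0.12 (adjusted p = 0.00623) in NKDxIL15tg spleen. Mcm3, the neighbour of Mcm5 in the ring, read 664, 672 and 436 in NKDxIL15tg bone marrow, 449, 506 and 447 in NKDxIL15tg spleen and 247, 257 and 284 in IL15tg spleen. Replicate 3 was the lowest array of NKDxIL15tg bone marrow and lay below all of NKDxIL15tg spleen, while both groups lay above IL15tg spleen. The change of Mcm3 was 1.14 ± 0.17 (adjusted p = 0.00212) in NKDxIL15tg bone marrow and 0.83 ± 0.17 (adjusted p = 0.0137) in NKDxIL15tg spleen.

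Mcm6, another ring subunit, whose promoter elements are shown above, read 1254, 1164 and 1312 in NKDxIL15tg bone marrow, 923, 1183 and 844 in NKDxIL15tg spleen and 596, 633 and 562 in IL15tg spleen. Replicate 2 of NKDxIL15tg spleen reached the level of NKDxIL15tg bone marrow, and no array of either group overlapped IL15tg spleen. The change was 1.06 ± 0.14 (adjusted p = 0.00109) in NKDxIL15tg bone marrow and 0.71 ± 0.14 (adjusted p = 0.0111) in NKDxIL15tg spleen. Mcm7 read 1962, 1855 and 2162 in NKDxIL15tg bone marrow, 1361, 1344 and 1308 in NKDxIL15tg spleen and 927, 936 and 1025 in IL15tg spleen, so that the 3 groups did not overlap. It changed by 1.05 ± 0.10 (adjusted p = 0.000238) in NKDxIL15tg bone marrow and 0.48 ± 0.10 (adjusted p = 0.0162) in NKDxIL15tg spleen. Mcm4 read 1253, 1179 and 1074 in NKDxIL15tg bone marrow, 950.1, 1051 and 979 in NKDxIL15tg spleen and 859.5, 911 and 1026 in IL15tg spleen, and its NKDxIL15tg spleen and IL15tg spleen arrays overlapped. It did not pass in either comparison (0.33, adjusted p = 0.0687, in NKDxIL15tg bone marrow and 0.09, adjusted p = 0.679, in NKDxIL15tg spleen), but passed in NKDxIL15tg bone marrow without replicate 3 at 0.39 (adjusted p = 0.0417).

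Mcm5 completed the ring with changes of 0.76 ± 0.12 (adjusted p = 0.00243) in NKDxIL15tg bone marrow and 0.50 ± 0.12 (adjusted p = 0.0231) in NKDxIL15tg spleen. Orc6, a small subunit of the origin recognition complex, rose in NKDxIL15tg bone marrow (0.55 ± 0.16, adjusted p = 0.0363) and read 0.35 in NKDxIL15tg spleen (adjusted p = 0.188). Orc1, the largest subunit of that complex, and Cdt1, the partner of Cdc6 in loading, passed in neither comparison, at 0.25 and 0.22 in NKDxIL15tg bone marrow and -0.08 and 0.15 in NKDxIL15tg spleen. In NKDxIL15tg spleen, Mcm3 and Mcm7 missed the threshold without IL15tg spleen replicate 1, IL15tg spleen replicate 2 or NKDxIL15tg spleen replicate 2 (adjusted p up to 0.0597 and 0.0684), and Mcm5 also without IL15tg spleen replicate 3 (up to 0.0878). Orc6 missed it in NKDxIL15tg bone marrow without any one IL15tg array or without bone marrow replicate 1 or 2 (up to 0.12).

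The genes that activate the helicase included one whose probe sets disagreed. Mcm10, which helps the helicase fire, read 172, 220.2 and 180 in NKDxIL15tg bone marrow, 143, 148 and 144 in NKDxIL15tg spleen and 89.3, 90.8 and 106 in IL15tg spleen, again with no overlap between groups. Its change was 0.99 ± 0.13 (adjusted p = 0.000916) in NKDxIL15tg bone marrow and 0.61 ± 0.13 (adjusted p = 0.0138) in NKDxIL15tg spleen. Gins2, a GINS subunit, rose by 0.75 ± 0.11 (adjusted p = 0.00233) in NKDxIL15tg bone marrow and 0.50 ± 0.11 (adjusted p = 0.0221) in NKDxIL15tg spleen, and Gins1, another, rose in NKDxIL15tg bone marrow by 0.82 ± 0.22 (adjusted p = 0.0271) and read 0.51 in NKDxIL15tg spleen (adjusted p = 0.162). In NKDxIL15tg spleen the call of Mcm10 ended without IL15tg spleen replicate 1 or 2 (adjusted p up to 0.0619), and that of Gins2 without any one IL15tg array or NKDxIL15tg spleen replicate 1 or 2 (up to 0.0772). The call of Gins1 in NKDxIL15tg bone marrow ended without any one IL15tg array or bone marrow replicate 1 or 2 (up to 0.0895).

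Cdc45, the factor that joins the helicase and GINS, was measured by 2 probe sets. The brightest read 179, 240.3 and 191 in NKDxIL15tg bone marrow, 238, 276 and 316 in NKDxIL15tg spleen and 445, 332 and 436 in IL15tg spleen. It was highest in IL15tg spleen, with overlap between NKDxIL15tg bone marrow and NKDxIL15tg spleen, and fell in NKDxIL15tg bone marrow (-0.99 ± 0.17, adjusted p = 0.00436), while in NKDxIL15tg spleen it read -0.54 ± 0.17 (adjusted p = 0.068) and passed as lower without NKDxIL15tg bone marrow replicate 3 (adjusted p = 0.0458). The dimmer one read 242, 282 and 199.7 in NKDxIL15tg bone marrow, 132, 204 and 188 in NKDxIL15tg spleen and 82.6, 99.9 and 108 in IL15tg spleen. It ran the opposite way, with all NKDxIL15tg arrays above IL15tg spleen, and rose by 1.31 ± 0.20 (adjusted p = 0.00217) in NKDxIL15tg bone marrow and 0.84 ± 0.20 (adjusted p = 0.0236) in NKDxIL15tg spleen. These values leave the direction of Cdc45 unsettled.

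**Figure D3:**
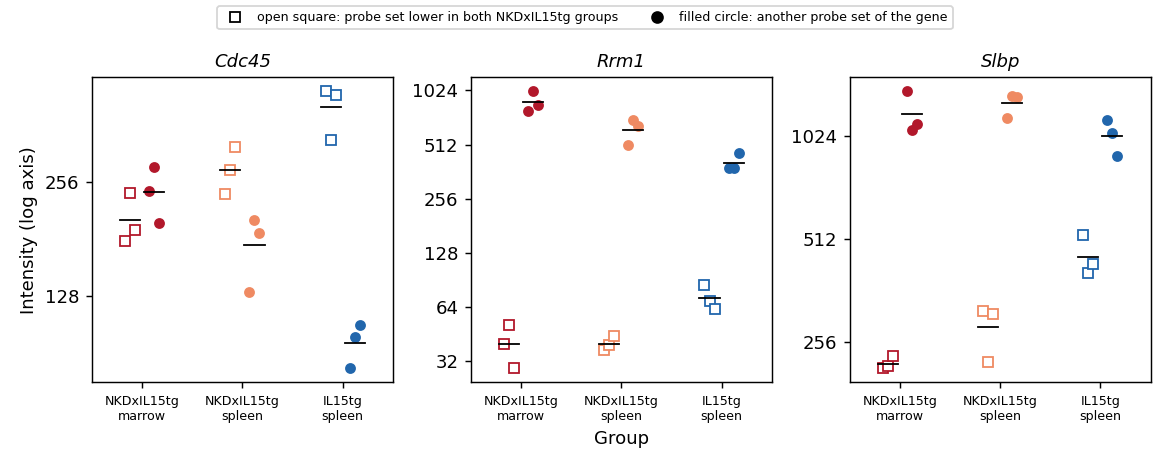
Intensity (log axis) of a pair of probe sets each for Cdc45, Rrm1 and Slbp, per array and group, with black lines at the group means. Open squares are the probe sets whose mean is lower in both NKDxIL15tg groups than in IL15tg spleen, the brightest of Cdc45 and dimmer ones of Rrm1 and Slbp; filled circles are other probe sets of the same genes, which are higher there.

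The plot of probe sets that disagree shows Cdc45 beside 2 other genes of this kind, Rrm1 and Slbp. Over all 107 probe sets, 87 passed the filter. Of these 51 were higher and 3 lower in NKDxIL15tg bone marrow, and 30 were higher and 2 lower in NKDxIL15tg spleen. The probe sets that fell were those of Cdc45 (in NKDxIL15tg bone marrow), Rrm1 and Slbp. Over all tested probe sets of the array, 9.79% were higher and 11.5% lower in NKDxIL15tg bone marrow, and 6.75% were higher and 7.04% lower in NKDxIL15tg spleen. Counting a gene as higher when any of its probe sets was gave 33 genes in NKDxIL15tg bone marrow and 20 in NKDxIL15tg spleen. This rule gives a gene with several probe sets more chances, and its share over all genes was not taken.

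Further pairs of probe sets gave different calls with the same direction. In NKDxIL15tg bone marrow against IL15tg spleen, a second probe set passed where the brightest did not for Orc1 (0.37 ± 0.10, adjusted p = 0.0321), Cdt1 (0.56 ± 0.17, adjusted p = 0.0491) and Prim2 (0.84 ± 0.22, adjusted p = 0.0259). The same held for Fen1 in NKDxIL15tg spleen (0.78 ± 0.17, adjusted p = 0.0188). A second probe set missed the threshold where the brightest passed for Mcm6 in NKDxIL15tg bone marrow (0.37 ± 0.14, adjusted p = 0.0877). Both other tested probe sets of Rfc2 did so too, at 0.31 ± 0.14 (adjusted p = 0.14) and 0.28 ± 0.10 (adjusted p = 0.0714), and 1 of the 4 others of Mcm3, at 0.32 ± 0.14 (adjusted p = 0.142). In NKDxIL15tg spleen this was so for Rrm2 (0.59 ± 0.18, adjusted p = 0.0668), Mcm7 (0.45 ± 0.19, adjusted p = 0.157), Rfc4 (0.67 ± 0.25, adjusted p = 0.111) and Exo1 (0.11 ± 0.23, adjusted p = 0.843). Of the 4 other tested probe sets of Mcm3, 1 passed in NKDxIL15tg spleen, at 0.86 ± 0.21 (adjusted p = 0.026). Directions also differed in genes where no probe set passed. In NKDxIL15tg spleen another Orc1 probe set read 0.35 ± 0.10 (adjusted p = 0.0543), against -0.08 for the brightest. Others there read -0.12 for Brca1, 0.14 for Rpa1 and 0.01 for Pold1, opposite to their brightest. In NKDxIL15tg bone marrow the other tested probe sets of Pola2 read -0.53 and -0.33, against 0.06, and another of Dnmt1 read 0.10.

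Of the polymerase and primase genes 3 of 7 were higher in NKDxIL15tg bone marrow and 0 of 7 in NKDxIL15tg spleen, where limma gave 1 of them an unadjusted p under 0.05. The changes were positive in 7 of 7 genes in NKDxIL15tg bone marrow and 5 of 7 in NKDxIL15tg spleen. Pola1, the catalytic subunit of polymerase alpha, read 240.3, 419.8 and 245 in NKDxIL15tg bone marrow, 176, 269.6 and 279.7 in NKDxIL15tg spleen and 167, 122 and 195 in IL15tg spleen. It lay above IL15tg spleen in every NKDxIL15tg bone marrow array, and NKDxIL15tg spleen overlapped with IL15tg spleen. The change of Pola1 was 0.88 ± 0.28 (adjusted p = 0.0513) in NKDxIL15tg bone marrow and 0.58 ± 0.28 (adjusted p = 0.213) in NKDxIL15tg spleen, and it passed in NKDxIL15tg bone marrow without replicate 3 (1.00, adjusted p = 0.0317). Pole, the catalytic subunit of the leading-strand polymerase epsilon, read 147, 114 and 104 in NKDxIL15tg bone marrow, 95.6, 115 and 90.6 in NKDxIL15tg spleen and 70.4, 62.2 and 81.8 in IL15tg spleen, with no overlap of either group with IL15tg spleen. It changed by 0.76 ± 0.17 (adjusted p = 0.0131) in NKDxIL15tg bone marrow and 0.49 ± 0.17 (adjusted p = 0.0881) in NKDxIL15tg spleen, and passed in NKDxIL15tg spleen without NKDxIL15tg bone marrow replicate 3 (adjusted p = 0.0461). Pold2, an accessory subunit of polymerase delta, read 234, 185 and 219 in NKDxIL15tg bone marrow, 173, 197 and 141 in NKDxIL15tg spleen and 151, 159 and 133 in IL15tg spleen. Its spleen groups overlapped, and it rose in NKDxIL15tg bone marrow by 0.53 ± 0.15 (adjusted p = 0.0384), but not without NKDxIL15tg bone marrow replicate 3 (adjusted p = 0.0568).

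Prim1, the catalytic subunit of primase, rose in NKDxIL15tg bone marrow by 0.86 ± 0.21 (adjusted p = 0.0197) and read 0.47 in NKDxIL15tg spleen (adjusted p = 0.18). Its partner Prim2 (0.58 and 0.41), Pola2 (0.06 and -0.18) and Pold1, the catalytic subunit of polymerase delta (0.14 and -0.03), passed in neither NKDxIL15tg bone marrow nor NKDxIL15tg spleen, although Prim2 passed in NKDxIL15tg bone marrow with the replicate number as a block (adjusted p = 0.0345). The call of Prim1 in NKDxIL15tg bone marrow ended without IL15tg spleen replicate 1 or 2 or bone marrow replicate 2 (adjusted p up to 0.0804) and that of Pole without IL15tg spleen replicate 1 or 2 (up to 0.0562). The call of Pold2 held in 3 of 9 fits that left out 1 array (up to 0.122), and ended without any one IL15tg array, NKDxIL15tg spleen replicate 1 or bone marrow replicate 1 or 3.

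Of the clamp, clamp loader and RPA genes 5 of 9 were higher in NKDxIL15tg bone marrow and 4 of 9 in NKDxIL15tg spleen. Rpa2, the middle subunit of RPA, read 1132, 1462 and 940 in NKDxIL15tg bone marrow, 921, 1235 and 925 in NKDxIL15tg spleen and 446, 487 and 539 in IL15tg spleen. All 6 NKDxIL15tg arrays lay above the 3 IL15tg arrays, with overlap between NKDxIL15tg bone marrow and NKDxIL15tg spleen. It rose by 1.24 ± 0.18 (adjusted p = 0.00206) in NKDxIL15tg bone marrow and 1.06 ± 0.18 (adjusted p = 0.00665) in NKDxIL15tg spleen. Rpa1, the large subunit that holds most of the DNA contacts, read 2884, 2894 and 2888 in NKDxIL15tg bone marrow, 2695, 2916 and 2626 in NKDxIL15tg spleen and 2661, 2723 and 2908 in IL15tg spleen, with overlap between all groups. Its change was 0.06 in NKDxIL15tg bone marrow and -0.01 in NKDxIL15tg spleen, and that of Rpa3, the small subunit, 0.06 and 0.09, and neither passed.

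RFC is a ring of 5 subunits that opens the clamp. Rfc4 read 262, 372 and 323 in NKDxIL15tg bone marrow, 218, 291 and 266 in NKDxIL15tg spleen and 123, 175 and 165 in IL15tg spleen. Both NKDxIL15tg groups lay above IL15tg spleen, and Rfc4 rose by 1.05 ± 0.19 (adjusted p = 0.00496) in NKDxIL15tg bone marrow and 0.75 ± 0.19 (adjusted p = 0.0294) in NKDxIL15tg spleen. Rfc5 read 494, 548 and 463 in NKDxIL15tg bone marrow, 419, 432 and 477 in NKDxIL15tg spleen and 264, 269.6 and 284 in IL15tg spleen. Its NKDxIL15tg arrays were likewise all above the IL15tg arrays, and it rose by 0.88 ± 0.11 (adjusted p = 0.00079) in NKDxIL15tg bone marrow and 0.70 ± 0.11 (adjusted p = 0.00352) in NKDxIL15tg spleen, the smallest adjusted p of the 46 genes in NKDxIL15tg spleen. Rfc2 read 559, 518 and 734 in NKDxIL15tg bone marrow, 477, 478 and 460 in NKDxIL15tg spleen and 447, 402 and 439.5 in IL15tg spleen, with replicate 3 the highest array of NKDxIL15tg bone marrow. It rose in NKDxIL15tg bone marrow (0.48 ± 0.14, adjusted p = 0.0381), but not without replicate 3 (adjusted p = 0.0553), and read 0.14 in NKDxIL15tg spleen. Rfc1, the largest loader subunit, read 569, 571 and 349 in NKDxIL15tg bone marrow, 393, 401 and 492 in NKDxIL15tg spleen and 373, 369 and 437 in IL15tg spleen, with replicate 3 the lowest array of NKDxIL15tg bone marrow. It did not pass (0.31, adjusted p = 0.288, in NKDxIL15tg bone marrow), but did without replicate 3 (0.54, adjusted p = 0.019).

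Pcna, the clamp itself, rose by 0.65 ± 0.11 (adjusted p = 0.00462) in NKDxIL15tg bone marrow and 0.57 ± 0.11 (adjusted p = 0.012) in NKDxIL15tg spleen. Rfc3 passed in neither comparison (0.36 in NKDxIL15tg bone marrow and 0.27 in NKDxIL15tg spleen), although its second probe set was higher in NKDxIL15tg bone marrow (0.76 ± 0.17, adjusted p = 0.0145). In NKDxIL15tg spleen the call of Pcna ended without IL15tg spleen replicate 1 or 3 (adjusted p up to 0.0539), and that of Rfc4 without any one IL15tg array or NKDxIL15tg spleen replicate 2 or 3 (up to 0.106). The call of Rfc2 in NKDxIL15tg bone marrow held in 2 of 9 fits that left out 1 array (up to 0.126), those without NKDxIL15tg spleen replicate 2 or without bone marrow replicate 2.

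Lig1, the ligase that seals Okazaki fragments, rose by 0.99 ± 0.14 (adjusted p = 0.0014) in NKDxIL15tg bone marrow and 0.50 ± 0.14 (adjusted p = 0.0403) in NKDxIL15tg spleen. In NKDxIL15tg spleen its call held in the fewest fits of the 17: it passed in 1 of 9 fits that left out an array, the one without NKDxIL15tg bone marrow replicate 3, and its adjusted p reached 0.147 in the other fits. With the replicate number as a block its adjusted p was 0.0572. Fen1, the nuclease that trims the same fragments, read 1457, 1391 and 2855 in NKDxIL15tg bone marrow, 1376, 1307 and 1389 in NKDxIL15tg spleen and 1001, 1013 and 1028 in IL15tg spleen. Replicate 3 of NKDxIL15tg bone marrow stood well above the other arrays of its group, and neither NKDxIL15tg group overlapped with IL15tg spleen. It rose in NKDxIL15tg bone marrow by 0.82 ± 0.24 (adjusted p = 0.0391), and by 0.49 without replicate 3 (adjusted p = 0.00831). In NKDxIL15tg spleen Fen1 read 0.42 ± 0.24 (adjusted p = 0.305) and passed without NKDxIL15tg bone marrow replicate 3 (adjusted p = 0.0114). Its call in NKDxIL15tg bone marrow ended without any one of the 6 spleen arrays (adjusted p up to 0.113).

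All 3 tested genes of nucleotide supply rose in NKDxIL15tg bone marrow. Their median change was 1.60 in NKDxIL15tg bone marrow, or 1.15 without replicate 3, and a median of 0.61 in NKDxIL15tg spleen. Rrm2, the small subunit of ribonucleotide reductase, which limits the making of deoxynucleotides, read 1033, 1323 and 951 in NKDxIL15tg bone marrow, 598, 835 and 1026 in NKDxIL15tg spleen and 358, 292 and 419 in IL15tg spleen. Every NKDxIL15tg array lay above every IL15tg array, and replicate 3 of NKDxIL15tg spleen reached the range of NKDxIL15tg bone marrow. It rose by 1.63 ± 0.22 (adjusted p = 0.00135) in NKDxIL15tg bone marrow and 1.18 ± 0.22 (adjusted p = 0.0094) in NKDxIL15tg spleen. Rrm1, the large subunit, read 789, 1012 and 851 in NKDxIL15tg bone marrow, 512, 704 and 645 in NKDxIL15tg spleen and 378, 379 and 459.9 in IL15tg spleen in its brightest probe set. The 3 groups did not overlap, and Rrm1 rose by 1.12 ± 0.16 (adjusted p = 0.00151) in NKDxIL15tg bone marrow and 0.61 ± 0.16 (adjusted p = 0.0342) in NKDxIL15tg spleen. Another probe set of Rrm1 rose too, by 1.39 ± 0.17 (adjusted p = 0.000711) in NKDxIL15tg bone marrow and 1.17 ± 0.17 (adjusted p = 0.0025) in NKDxIL15tg spleen. The dimmest tested one read 39.97, 51.2 and 29.2 in NKDxIL15tg bone marrow, 36.9, 39.4 and 44.3 in NKDxIL15tg spleen and 85.4, 69.0 and 62.9 in IL15tg spleen. All its NKDxIL15tg arrays were below the IL15tg arrays, and it fell by 0.88 ± 0.20 in NKDxIL15tg bone marrow (adjusted p = 0.0165) and by 0.84 ± 0.20 in NKDxIL15tg spleen (adjusted p = 0.0271).

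Tk1, the thymidine kinase of the salvage pathway, read 179, 219 and 525 in NKDxIL15tg bone marrow, 107, 174 and 129.8 in NKDxIL15tg spleen and 84.2, 84.7 and 104 in IL15tg spleen. Replicate 3 of NKDxIL15tg bone marrow stood far above the other 8 arrays, and the other arrays kept the order of NKDxIL15tg bone marrow above NKDxIL15tg spleen above IL15tg spleen with no overlap. Tk1 rose in NKDxIL15tg bone marrow by 1.60 ± 0.36 (adjusted p = 0.0143), and by 1.13 without replicate 3 (adjusted p = 0.00362), and read 0.57 ± 0.36 (adjusted p = 0.365) in NKDxIL15tg spleen. Its call in NKDxIL15tg bone marrow ended without IL15tg spleen replicate 1 or 2 (adjusted p up to 0.0583). The call of Rrm1 in NKDxIL15tg spleen ended without IL15tg spleen replicate 1 or 2 or NKDxIL15tg spleen replicate 2 or 3 (up to 0.122).

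Of the genes that restore chromatin behind the fork, 1 of 4, Uhrf1, passed. Uhrf1, which guides the maintenance DNA methyltransferase Dnmt1 to new strands, read 229, 279.7 and 172 in NKDxIL15tg bone marrow, 130.4, 183 and 198 in NKDxIL15tg spleen and 78.6, 63.6 and 90.6 in IL15tg spleen. Both NKDxIL15tg groups lay above IL15tg spleen and overlapped each other. It rose by 1.53 ± 0.22 (adjusted p = 0.00192) in NKDxIL15tg bone marrow and 1.13 ± 0.22 (adjusted p = 0.0121) in NKDxIL15tg spleen, and missed the threshold in NKDxIL15tg spleen without IL15tg spleen replicate 2 (adjusted p = 0.0549). Dnmt1 itself read -0.04 in NKDxIL15tg bone marrow and -0.32 in NKDxIL15tg spleen (adjusted p = 0.846 and 0.136). Chaf1b, of the chromatin assembly factor that places histones on new DNA, read 0.16 and 0.04, and neither value passed.

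Slbp binds the stem loop of histone messages. Its brightest probe set read 0.21 ± 0.14 (adjusted p = 0.31) in NKDxIL15tg bone marrow and 0.32 ± 0.14 (adjusted p = 0.179) in NKDxIL15tg spleen. Its second probe set read 215, 218 and 233 in NKDxIL15tg bone marrow, 315, 225 and 309.6 in NKDxIL15tg spleen and 526, 408 and 434 in IL15tg spleen. That probe set was lower in every NKDxIL15tg array than in any IL15tg array, and fell by 1.03 ± 0.16 in NKDxIL15tg bone marrow (adjusted p = 0.00234) and by 0.69 ± 0.16 in NKDxIL15tg spleen (adjusted p = 0.0202).

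Genes of S phase entry and its checkpoint varied widely between replicates. Chek1, the kinase that restrains origin firing under replication stress, read 196, 325 and 182 in NKDxIL15tg bone marrow, 112, 233 and 251 in NKDxIL15tg spleen and 94.3, 70.8 and 92.2 in IL15tg spleen. Replicate 1 of NKDxIL15tg spleen lay below the other NKDxIL15tg spleen arrays and still above IL15tg spleen. Chek1 rose in NKDxIL15tg bone marrow by 1.41 ± 0.33 (adjusted p = 0.016) and in NKDxIL15tg spleen read 1.14 ± 0.33, with an adjusted p of 0.05 after rounding that missed the threshold, and passed without NKDxIL15tg bone marrow replicate 3 (adjusted p = 0.0263). Its second tested probe set rose in both, by 1.54 ± 0.34 (adjusted p = 0.013) in NKDxIL15tg bone marrow and 1.30 ± 0.34 (adjusted p = 0.0352) in NKDxIL15tg spleen. Ccne2, or cyclin E2, which drives cells into S phase, read 169, 247 and 155 in NKDxIL15tg bone marrow, 105, 210.2 and 261 in NKDxIL15tg spleen and 100.3, 67.7 and 97.6 in IL15tg spleen. Here too replicate 1 was the lowest of NKDxIL15tg spleen, close to IL15tg spleen.

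Ccne2 rose in NKDxIL15tg bone marrow by 1.09 ± 0.33 (adjusted p = 0.0456) and in NKDxIL15tg spleen read 1.04 ± 0.33 (adjusted p = 0.0719), which passed without NKDxIL15tg bone marrow replicate 3 (adjusted p = 0.0424). Its call in NKDxIL15tg bone marrow held in 3 of 9 fits without an array and ended without any one IL15tg array, NKDxIL15tg spleen replicate 2 or bone marrow replicate 1 or 2 (adjusted p up to 0.15), and with the replicate number as a block (adjusted p = 0.0584). The call of Chek1 in NKDxIL15tg bone marrow ended without IL15tg spleen replicate 2 (adjusted p = 0.0644). Ccne1, or cyclin E1, read 408, 415 and 2454 in NKDxIL15tg bone marrow, 389, 395 and 423 in NKDxIL15tg spleen and 382, 355 and 452 in IL15tg spleen. In this probe set only NKDxIL15tg bone marrow replicate 3 stood apart, and the gene did not pass (0.92 ± 0.58, adjusted p = 0.277, in NKDxIL15tg bone marrow). The other tested probe set of Ccne1 did not show this. It read 68.9, 78.9 and 64.6 in NKDxIL15tg bone marrow, 62.7, 65.6 and 52.4 in NKDxIL15tg spleen and 56.0, 56.2 and 60.5 in IL15tg spleen. Its change in NKDxIL15tg bone marrow was 0.29 ± 0.12 (adjusted p = 0.125).

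Among 4 repair genes, Exo1 and Brca2 rose in NKDxIL15tg bone marrow and Exo1 in NKDxIL15tg spleen. Exo1, a nuclease of mismatch repair and of break ends, read 80.6, 83.8 and 61.3 in NKDxIL15tg bone marrow, 56.3, 66.1 and 76.1 in NKDxIL15tg spleen and 40.7, 35.3 and 41.5 in IL15tg spleen. All its NKDxIL15tg arrays lay above the IL15tg arrays, and it changed by 0.93 ± 0.16 (adjusted p = 0.00427) in NKDxIL15tg bone marrow and 0.75 ± 0.16 (adjusted p = 0.0164) in NKDxIL15tg spleen. Msh6, which recognises mismatches behind the fork, read 377, 438 and 298 in NKDxIL15tg bone marrow, 339, 488 and 355 in NKDxIL15tg spleen and 256, 257 and 267 in IL15tg spleen. It lay above IL15tg spleen in every NKDxIL15tg array and passed in neither comparison, with 0.49 ± 0.18 (adjusted p = 0.0788) in NKDxIL15tg bone marrow and 0.58 ± 0.18 (adjusted p = 0.0622) in NKDxIL15tg spleen. Without NKDxIL15tg bone marrow replicate 3, the lowest of its group, Msh6 passed in both (adjusted p = 0.019 in NKDxIL15tg bone marrow and 0.021 in NKDxIL15tg spleen), and it passed in NKDxIL15tg spleen with the replicate number as a block (adjusted p = 0.0469).

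Brca2, which acts in repair by homologous recombination, rose in NKDxIL15tg bone marrow by 0.68 ± 0.15 (adjusted p = 0.011) and read 0.25 in NKDxIL15tg spleen (adjusted p = 0.317). Brca1, which acts upstream of it, read 0.46 (adjusted p = 0.0536) and 0.26 (adjusted p = 0.292). The call of Exo1 in NKDxIL15tg spleen ended without IL15tg spleen replicate 1 or 2 or NKDxIL15tg spleen replicate 2 (adjusted p up to 0.07), and that of Brca2 in NKDxIL15tg bone marrow without IL15tg spleen replicate 1 (adjusted p = 0.0515).

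Between the organs, NKDxIL15tg bone marrow against NKDxIL15tg spleen compares cells of the same genotype. In this comparison limma called 0 of the 46 genes higher and 0 lower, as it called 0.0232% of all genes higher and 0.0464% lower. At an unadjusted p under 0.05, 9 replication genes were higher and 1 was lower (19.6% and 2.17%), against 6.21% and 4.66% of all genes. The median change was 0.26, against 0.03 over all genes, and 42 of 46 changes were positive. The lowest adjusted p was that of Mcm7 (0.57 ± 0.10, adjusted p = 0.195), named after its values were seen. All 3 arrays of NKDxIL15tg bone marrow lay above those of NKDxIL15tg spleen for 14 genes (10.8% of all genes), and below them for 0 (6.03%). The 14 were Cdc6, Mcm2, Mcm4, Mcm7, Orc1, Mcm10, Gins2, Rfc2, Fen1, Lig1, Rrm1, Tk1, Dnmt1 and Brca2. Without NKDxIL15tg bone marrow replicate 3 the calls were again 0 and 0 (0.0232% and 0.0464% of all genes). At an unadjusted p under 0.05, limma then gave 15 higher and 0 lower (4.72% and 4.14% of all genes). The median was 0.29, against 0.015 over all genes. The arrays then lay above those of NKDxIL15tg spleen for 24 genes (14.2% of all genes) and below for 0 (9.43%). With the replicate number as a block the calls were 0 and 0 as well (0.0542% and 0.0464% of all genes), with 11 higher and 1 lower at an unadjusted p under 0.05 (9.04% and 5.09% of all genes). In a count added after the values were seen, 23 of the 46 genes were higher in NKDxIL15tg bone marrow than in NKDxIL15tg spleen in all 3 pairs of arrays with the same replicate number (24.4% of all genes), and 1, Cdc45 by its brightest probe set, was lower in all 3 (16.7%). Of the 87 tested probe sets of the listed genes, 0 were higher and 0 lower in this comparison, where 0.0111% and 0.0407% of all probe sets were.

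Other genes of the same processes were set beside the listed ones. Of 35 further replication factors, 17 were higher and 2 lower in NKDxIL15tg bone marrow, with a median of 0.42, and 6 were higher and 1 lower in NKDxIL15tg spleen, with a median of 0.21. Asf1b, a histone chaperone, changed by 1.58 ± 0.18 (adjusted p = 0.000567) in NKDxIL15tg bone marrow and 1.17 ± 0.18 (adjusted p = 0.00367) in NKDxIL15tg spleen. Dut, which clears dUTP from the nucleotide pool, rose in NKDxIL15tg bone marrow by 1.45 ± 0.15 (adjusted p = 0.000367). Mcmbp, which binds Mcm proteins, fell in NKDxIL15tg spleen by 1.16 ± 0.14 (adjusted p = 0.00116) in its brightest probe set, as did another of its probe sets, by 1.05 ± 0.21 (adjusted p = 0.0125), while the remaining one read 0.14 (adjusted p = 0.577). Of 28 further repair factors, 6 were higher and 1 lower in NKDxIL15tg bone marrow (median 0.22, or 0.07 without NKDxIL15tg bone marrow replicate 3) and 3 higher and 1 lower in NKDxIL15tg spleen (median 0.01). Over all genes 11.5% were higher and 8.70% lower in NKDxIL15tg bone marrow, and 7.65% higher and 4.87% lower in NKDxIL15tg spleen. Apex1, the nuclease of base excision repair, rose by 1.52 ± 0.18 (adjusted p = 0.000667) in NKDxIL15tg bone marrow and 0.91 ± 0.18 (adjusted p = 0.0117) in NKDxIL15tg spleen.

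E2F and pocket protein genes held 5 of 13 that were higher in NKDxIL15tg bone marrow (median 0.66, or 0.28 without NKDxIL15tg bone marrow replicate 3) and 3 of 13 in NKDxIL15tg spleen (median 0.23). Tfdp1, the partner subunit of E2F proteins, rose by 1.54 ± 0.16 (adjusted p = 0.000297) in NKDxIL15tg bone marrow and 1.41 ± 0.16 (adjusted p = 0.000633) in NKDxIL15tg spleen. E2f3 rose in NKDxIL15tg spleen by 0.64 ± 0.13 (adjusted p = 0.0115) in its brightest probe set, while another read 0.14 (adjusted p = 0.72). E2f8, a repressor of the family, rose in NKDxIL15tg bone marrow by 1.63 ± 0.35 (adjusted p = 0.0111) with replicate 3 the highest of its group. The brightest probe set of E2f5 did not pass in either comparison. A dimmer one of E2f5 fell by 0.77 ± 0.12 (adjusted p = 0.00457) in NKDxIL15tg spleen and by 1.08 ± 0.12 (adjusted p = 0.000576) in NKDxIL15tg bone marrow. Mitosis genes were higher in 18 of 19 cases in NKDxIL15tg bone marrow (median 1.96) and 15 of 19 in NKDxIL15tg spleen (median 1.27). Nusap1, a spindle protein, and Bub1, a checkpoint kinase, had the largest changes in NKDxIL15tg bone marrow, at 2.55 ± 0.29 (adjusted p = 0.000551) and 2.37 ± 0.40 (adjusted p = 0.00399).

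**Figure D4:**
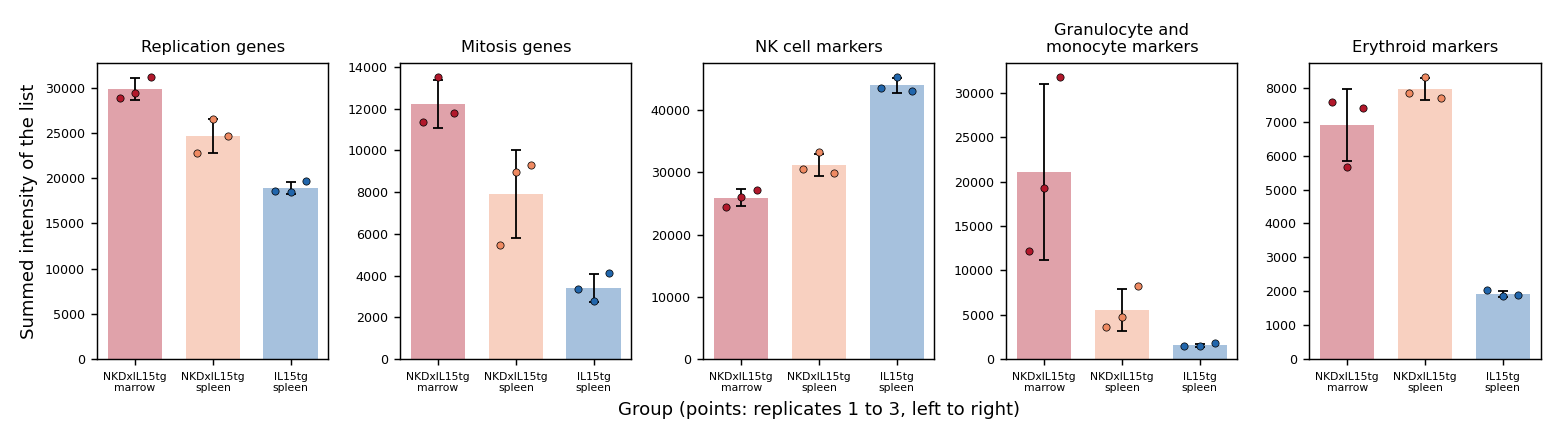
Summed intensity, in each array, of the brightest probe sets of the replication genes, the mitosis genes and 3 lists of cell type markers. Bars are group means, error bars are SDs of 3 arrays and points are arrays; the replication sum is 28840 to 31170 in NKDxIL15tg bone marrow, 22820 to 26570 in NKDxIL15tg spleen and 18470 to 19660 in IL15tg spleen.

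Markers of other cell types differed between the groups too, and not all in the same direction. The plot of summed intensities shows the granulocyte and monocyte list and the erythroid list, but not those of T and B cells. The 14 granulocyte and monocyte markers summed to 12220 to 31780 in NKDxIL15tg bone marrow, 3623 to 8229 in NKDxIL15tg spleen and 1440 to 1788 in IL15tg spleen, and of 13 tested 12 were higher in NKDxIL15tg bone marrow and 6 in NKDxIL15tg spleen than in IL15tg spleen. The 9 erythroid markers summed to 5669 to 7586 in NKDxIL15tg bone marrow, 7705 to 8317 in NKDxIL15tg spleen and 1869 to 2032 in IL15tg spleen, with 5 and 3 of 7 tested higher. Car2 made up most of each of these sums. It read 4726 to 6769 in NKDxIL15tg bone marrow, 6778 to 7150 in NKDxIL15tg spleen and 1356 to 1510 in IL15tg spleen. The 7 tested erythroid markers had a median log2 change of 0.59 in NKDxIL15tg bone marrow and 0.65 in NKDxIL15tg spleen. The 10 T cell markers summed to 2757 to 3569 in NKDxIL15tg bone marrow, 2928 to 3401 in NKDxIL15tg spleen and 1503 to 1604 in IL15tg spleen. Of these sums, Cd28 alone gave 1189 to 1675, 1395 to 1776 and 342.5 to 410.5. Cd3d, Cd3e and Cd3g did not pass in either NKDxIL15tg group against IL15tg spleen. The 12 B cell and pre-B cell markers summed to 698.6 to 1140 in NKDxIL15tg bone marrow, 805.5 to 886.8 in NKDxIL15tg spleen and 1036 to 1687 in IL15tg spleen. Of 7 tested, 3 (Cd79a, Cd79b and Ms4a1) were lower in both NKDxIL15tg groups than in IL15tg spleen. In NKDxIL15tg bone marrow 1, Vpreb3, was higher, and in NKDxIL15tg spleen 0 were. Rag1 lay under the floor of 16 in all spleen arrays. No other marker lay under the floor in all 3 arrays of a group. The part of such cells in the replication gene values was not tested. The replication gene sums of the arrays did not overlap between the 3 groups, but a sum weighs the brightest genes most. The median intensity of the 46 tested genes was 336.4 to 417.3 in NKDxIL15tg bone marrow, 316.2 to 361.9 in NKDxIL15tg spleen and 251.6 to 284.1 in IL15tg spleen. By this median NKDxIL15tg bone marrow replicate 3 lay within the range of NKDxIL15tg spleen.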

How the data were processed

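Total RNA of sorted NK cells was labelled with a kit that amplifies from the 3′ end and hybridised to Affymetrix arrays, per the labels. The deposited table holds linear intensities of 45101 probe sets in 9 arrays, and the sources used here do not give how the authors summarised and scaled them. Deposited intensities under 16 (4.36% of values) were set to 16 and the values were transformed to log2, with no rescaling because array medians differed by at most 0.197 on the log2 scale. The 64 control probe sets were left out, and the 27022 probe sets with a mean log2 intensity at or above the 40th percentile were tested (5.58, or 47.7 as an intensity).

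Of the probe sets 34945 carried 1 symbol in the platform annotation, 932 several and 9160 none. A gene was represented by its brightest probe set with 1 symbol. The listed genes, their roles and the other lists were chosen with earlier results of these data known. Values in every array were given for the 12 called genes with the largest change against IL15tg spleen. They were also given for those whose call changed without NKDxIL15tg bone marrow replicate 3 (at most 6). Changes of other probe sets of the listed genes were given where their call or direction against IL15tg spleen differed. Of the other lists, some of the called genes were named, and not always those with the largest changes.

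Group means were fitted with limma 3.58.1 (R 4.3.3), all 9 arrays together, and compared 2-sided, with Benjamini-Hochberg adjustment over all 27022 probe sets and a threshold of 0.05. The fit was tested on simulated data. The number of arrays limits the precision, with a median standard error of 0.154 on the log2 scale. Deviations from the group means of arrays with the same replicate number correlated at 0.12 to 0.16 between NKDxIL15tg spleen and IL15tg spleen and at 0.23 to 0.38 between NKDxIL15tg bone marrow and spleen, so these numbers were treated as pairs in an alternative fit. Between NKDxIL15tg bone marrow and IL15tg spleen the lowest of the 3 was -0.024. Arrays with different numbers correlated at -0.319 to 0.155 between NKDxIL15tg spleen and IL15tg spleen, a range that reaches the same-number values. They correlated at -0.349 to -0.00691 between NKDxIL15tg bone marrow and spleen, and at -0.37 to 0.267 between NKDxIL15tg bone marrow and IL15tg spleen. Alternatives covered other floors, scalings, filters, probe set rules, array weights, the replicate block and leaving out each array.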

Additional observations from a re-analysis of the deposited data

How the results depend on the processing

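The number of replication genes higher than in IL15tg spleen ranged from 18 to 30 in NKDxIL15tg bone marrow and from 7 to 22 in NKDxIL15tg spleen when 1 array was left out, and the number lower in NKDxIL15tg spleen from 0 to 1. With a floor of 64 the counts were 17 and 10. The mean of all probe sets of a gene gave medians of 0.558 in NKDxIL15tg bone marrow and 0.351 in NKDxIL15tg spleen, and turned the change of Cdc45 in NKDxIL15tg spleen to 0.15 (adjusted p = 0.645). A fit of only the arrays of the 2 groups called 1 gene lower in NKDxIL15tg spleen. With the replicate number as a block 28 genes were higher and 1 lower in NKDxIL15tg bone marrow and 17 and 0 in NKDxIL15tg spleen. Over all genes the block fit called 11.8% higher and 8.86% lower in NKDxIL15tg bone marrow, and 7.72% and 4.91% in NKDxIL15tg spleen. The block ended the calls of Ccne2 in bone marrow and Lig1 in spleen and added Prim2 in bone marrow (adjusted p = 0.0345) and Msh6 in spleen, and the median in spleen stayed at 0.485. A choice added after the values were seen, of probe sets whose names end in neither _s_at nor _x_at, gave 28 and 18 genes higher. Among the alternatives, shares of all genes were taken only for the block and for the fit without NKDxIL15tg bone marrow replicate 3. Over all alternatives, 160 counts and medians stayed close to their reported value and 11 moved. A count was taken as close when it was equal or within a fixed ratio of the reported one. A median was close when it moved by less than the larger SD of the array medians in the 2 groups. The tally includes the counts between NKDxIL15tg bone marrow and NKDxIL15tg spleen, which were 0 as reported. Of the values of named genes, 547 kept direction and side of the threshold, 68 lost and 32 gained the call and 1 reversed. The cause of these changes was not tested.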
